A study of Mus musculus with 18 samples.

Results

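Conjugation enzymes of the liver were described here as 3 gene families: the glutathione S-transferases (Gst), the UDP-glucuronosyltransferases (Ugt) and the sulfotransferases (Sult). Members were chosen by symbol alone (Gst followed by the class letter a, m, p, t, k, o or z and a number, Ugt1 to Ugt3, and Sult), and a member was taken as measured if the scanner put a probe of it well above background in 4 or more of the 18 livers. Of 66 such genes in a RefSeq gene table, 55 had a probe and 50 were measured (20 Gst, 14 Ugt and 16 Sult), out of 19598 genes measured on the arrays. Liver RNA came from male C57BL/6 mice, 1 array per mouse. LFD mice (n = 4) were untreated on a diet with 10% of its energy as fat, and LFD-MTX50 mice (n = 5) ate the same diet and received methotrexate. HFD mice (n = 4) were untreated on a diet with 60% of its energy as fat, and HFD-MTX50 mice (n = 5) ate that diet and received methotrexate. Feeding began at 6 weeks of age in all groups and lasted 10 weeks before treatment, methotrexate was injected intraperitoneally at 50 mg/kg in 5 weekly rounds, and livers were taken 1 week after the last dose. The RNA is therefore that of whole liver some days after exposure, and no earlier time or other dose was measured on these arrays.

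These enzymes carry out the conjugation step by which the liver makes drugs, hormones, bile acids, bilirubin and lipid peroxidation products water-soluble for export into bile or urine. Glutathione S-transferases add glutathione to electrophiles, UDP-glucuronosyltransferases of the endoplasmic reticulum add glucuronic acid from UDP-glucuronic acid, and cytosolic sulfotransferases add sulfate from the donor PAPS. In mouse liver many of the genes are known to be set by xenobiotic-sensing transcription factors (NRF2, CAR, PXR, AhR) and by sex, through the pattern of growth hormone release and STAT5.

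RefSeq promoters (GRCm38.p6) were found for 42 of the 50 measured members, and the 250 bases before the transcription start are shown for 5 of them. Gstp1 and Gstp2 are shown because Gstp1 gave the largest fall below, Gstp2 is its neighbour and their probes might not tell them apart, with the longest run of bases they share in capitals. Gsta3 and Gstm5 are shown because they fell in HFD-MTX50 livers and hold the core of the antioxidant response element bound by NRF2, TGACNNNGC, in capitals. Sult3a1 is shown for the largest rise and holds the STAT5 motif TTCNNNGAA, in capitals.
Gstp1 (chr19:4037913-4038162, minus strand): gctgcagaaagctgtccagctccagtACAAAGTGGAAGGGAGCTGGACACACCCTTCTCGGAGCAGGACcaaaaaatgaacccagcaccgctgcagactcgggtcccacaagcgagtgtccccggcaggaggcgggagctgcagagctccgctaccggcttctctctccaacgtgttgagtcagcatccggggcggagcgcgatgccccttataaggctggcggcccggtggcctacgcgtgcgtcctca
Gstp2 (chr19:4042222-4042471, minus strand): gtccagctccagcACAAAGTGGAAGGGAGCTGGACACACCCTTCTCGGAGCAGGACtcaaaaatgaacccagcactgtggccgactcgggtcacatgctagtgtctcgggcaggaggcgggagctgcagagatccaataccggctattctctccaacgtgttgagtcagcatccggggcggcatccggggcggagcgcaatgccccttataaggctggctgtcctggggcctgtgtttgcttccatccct
Gsta3 (chr1:21240335-21240584, plus strand): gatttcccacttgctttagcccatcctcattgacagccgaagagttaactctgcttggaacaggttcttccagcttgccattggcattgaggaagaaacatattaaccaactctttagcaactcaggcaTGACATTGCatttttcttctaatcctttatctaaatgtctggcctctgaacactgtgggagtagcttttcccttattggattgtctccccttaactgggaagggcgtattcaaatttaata
Gstm5 (chr3:107895604-107895853, plus strand): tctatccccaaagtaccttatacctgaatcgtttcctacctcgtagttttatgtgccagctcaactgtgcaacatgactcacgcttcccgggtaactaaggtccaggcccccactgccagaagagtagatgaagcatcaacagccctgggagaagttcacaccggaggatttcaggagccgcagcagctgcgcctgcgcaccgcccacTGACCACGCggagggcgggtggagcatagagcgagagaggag
Sult3a1 (chr10:33857472-33857721, plus strand): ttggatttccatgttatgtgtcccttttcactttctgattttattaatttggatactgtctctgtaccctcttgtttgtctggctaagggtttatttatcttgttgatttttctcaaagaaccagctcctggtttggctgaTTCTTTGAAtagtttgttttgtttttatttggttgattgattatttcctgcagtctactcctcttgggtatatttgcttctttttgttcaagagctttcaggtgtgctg
Aligned over 265 columns, the Gstp1 and Gstp2 stretches were identical at 78.1%, and the longest shared run was 43 bases. Over the full promoter window of 250 bases before to 50 after the start, on both strands, the antioxidant response element core was found in 3 of the 42 members (Gsta3, Gstm5 and Gstm7) and in 14.0% of all genes. The STAT5 motif was found in 3 members (Gstm6, Ugt1a6a and Sult3a1) and 9.55% of all genes. The HNF1 motif GTTAATNAT was found in Ugt1a10, Sult1d1 and Sult2a6 and in 0.940% of all genes, and the AhR motif TTGCGTG in Sult1d1 alone among members and in 1.35% of all genes. A match is a stretch of letters, and binding was not measured.

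Every level given below is the log2 of a probe's background-subtracted intensity minus the 75th percentile of its array, so that 1 unit is a 2-fold step, and a level compares mice, not genes. The arrays were alike in quality, with 84.2 to 90.8% of probes well above background, 75th percentiles of 1203 to 2263 intensity units, 0 saturated spots and correlations of 0.979 to 0.993 with the other arrays of the group. They lay on 6 slides that mostly held 1 group each, so that slide and group cannot be told apart in comparisons with LFD, whose 4 arrays filled slide 1. LFD-MTX50 mouse 5 was alone on its slide, while slide 5 held HFD mice 3 and 4 beside HFD-MTX50 mice 1 and 2. Hepatocyte markers (6 of 6 measured) had summed linear signals, in multiples of the 75th percentile, of 803 to 935 in LFD, 878 to 1017 in LFD-MTX50, 692 to 794 in HFD and 621 to 901 in HFD-MTX50. The median level over the 50 members was 1.76 to 2.12 in the 8 untreated livers and 0.79 to 1.47 in the 10 treated livers. That median depends on which gene ranks in the middle, and it was not set beside one for all genes. Gene by gene the median difference was smaller, -0.25 in LFD-MTX50 against LFD (35 members lower, 15 higher). In HFD-MTX50 against HFD it was -0.32 (36 lower, 14 higher). In whole liver, fewer cells of a type and less RNA per cell cannot be told apart.

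**Figure D1:**
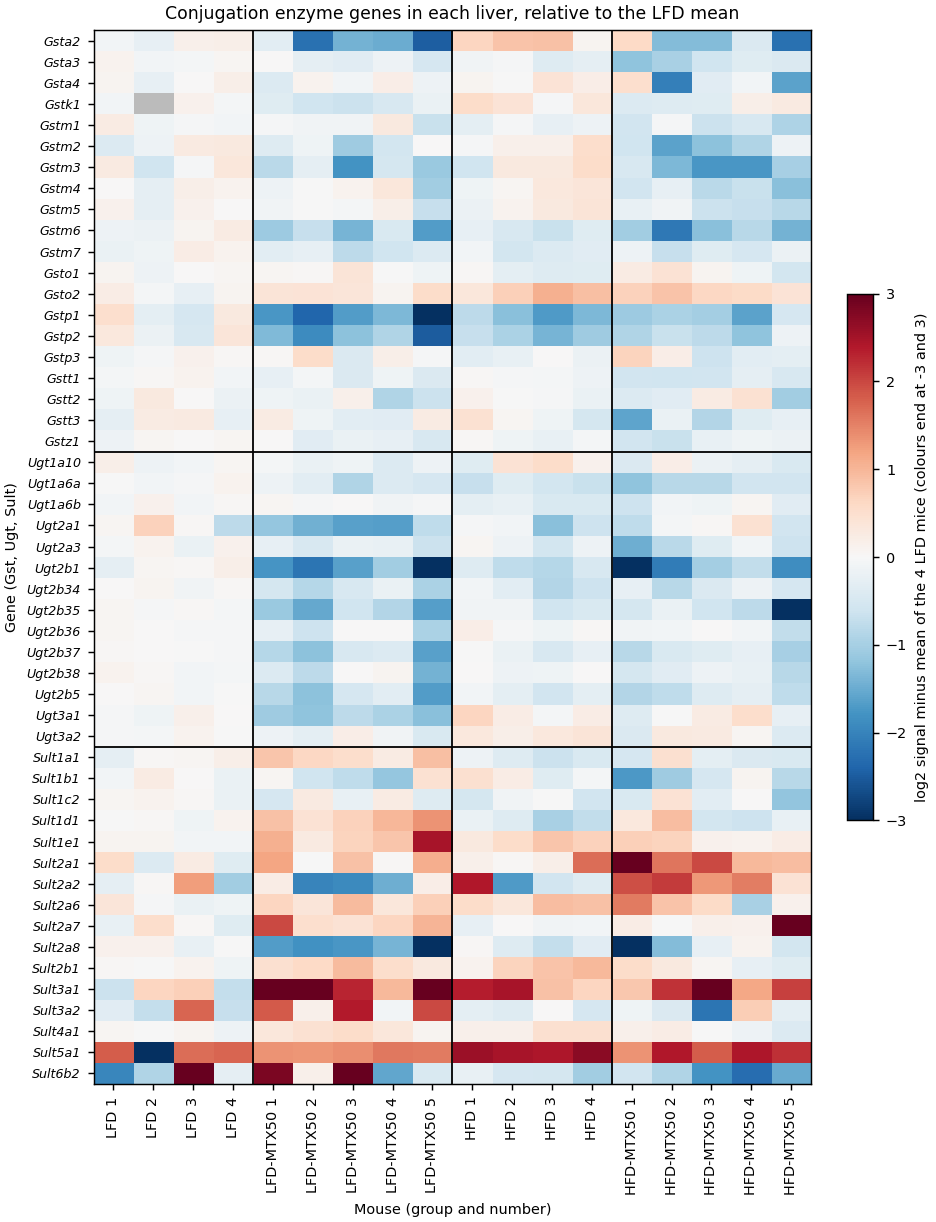
Level of each of the 50 members (rows) in each of the 18 livers (columns) as the log2 difference from the mean of the 4 LFD mice, blue lower and red higher, with colours ending at -3 and 3 and grey for a missing spot. Gstp1, Gstp2, Ugt2b1 and Sult2a8 are blue in all 5 LFD-MTX50 mice, and Sult1e1 and Sult1d1 are red in them.

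A member was called when its adjusted p was below 0.05 in limma (Benjamini-Hochberg over all 35739 probes kept). In LFD-MTX50 against LFD, 14 of 50 members fell and 5 rose, where 10.5% of all genes fell and 17.6% rose. The median difference was -0.25 over the members and 0.10 over all genes. In HFD-MTX50 against HFD, 8 of 50 fell, every one a Gst gene, and 0 rose (2 higher and 19 lower at an unadjusted p below 0.05), where 6.13% of all genes fell and 4.83% rose. A comparison of these 2 groups alone, without limma's moderation of variances and with Benjamini-Hochberg adjustment, called 0 members (10 lower at an unadjusted p below 0.05). A limma fit of the 2 groups alone, with moderation, also called 0. Both took the variance from these 2 groups and not from all 4, and the part of moderation by itself was not tested. The median difference was -0.32 over the members and -0.04 over all genes. In HFD against LFD, 4 of 50 fell (background 10.4%) and 2 rose (background 18%), with medians of -0.08 and 0.08. With a 2-fold change required as well, 8 members fell and 2 rose in LFD-MTX50 against LFD (2.23% and 2.51% of all genes). 3 fell and 0 rose in HFD-MTX50 against HFD (0.531% and 0.444%), and 2 fell and 0 rose in HFD against LFD (0.541% and 2.32%).

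These counts depend on the model and on single mice. When arrays of the same slide were allowed to correlate (a random block, estimated correlation 0.262), limma called 0 members for diet (2 higher and 4 lower at an unadjusted p below 0.05), 3 for LFD-MTX50 against LFD (Gstp1, Gstp2 and Ugt3a1, all lower) and 8 lower for HFD-MTX50 against HFD, so that the order of the counts turned. The slide as a fixed block could be fitted for HFD-MTX50 against HFD alone. Its difference comes from slide 5 only, HFD-MTX50 mice 1 and 2 against HFD mice 3 and 4. With it 10 were called. Of the 8 Gst calls Gsta3, Gstm2, Gstm4 and Gstt1 held and Gsta2, Gstm3, Gstm5 and Gstm6 were lost, Gstz1, Sult2a8, Ugt2a3 and Ugt2b1 were called lower besides, and Gsto1 and Sult1d1 higher. The HFD-MTX50 against HFD calls rest on the full set of mice: without HFD mouse 3 limma called 0 (1 higher and 15 lower at an unadjusted p below 0.05), without HFD mouse 4 it called 1, and 0 of the 8 calls held whichever array was left out. For the diet, 2 of 6 calls (Gsto2 and Ugt1a6a) held whichever array was left out, and for LFD-MTX50 against LFD 11 of 19 did: Gstm6, Gstp1, Gstp2, Sult1e1, Sult2a8, Sult3a1, Ugt2a1, Ugt2b1, Ugt2b37, Ugt2b5 and Ugt3a1. LFD-MTX50 mouse 5 was the lowest of its group in 10 of the 14 fallen members and the highest in 4 of the 5 risen ones. The split of higher and lower calls for the diet was 2 and 2 under quantile normalization and 2 and 6 after scaling to probes above background on every array.

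By family, LFD-MTX50 livers were lower than LFD livers in all 14 Ugt members (median difference -0.56, 7 called) and in 17 of 20 Gst members (median -0.26, 6 called), and higher in 12 of 16 Sult members (median 0.63, 5 called higher and 1 lower). Of all 19598 genes, 7822 were lower and 11776 higher there. HFD-MTX50 livers were lower than HFD livers in 16 of 20 Gst members (median -0.45, 8 called), 11 of 14 Ugt members (median -0.32) and 9 of 16 Sult members (median -0.19). Of all 19598 genes, 10682 were lower and 8916 higher, a split near that of the Sult members. In that comparison limma called 0 Ugt members (4 lower at an unadjusted p below 0.05) and 0 Sult members (2 higher and 3 lower). The random slide block called Ugt2b1 there, and the fixed slide block called Ugt2b1, Ugt2a3, Sult2a8 (all lower) and Sult1d1 (higher). On the shared slide their differences were -1.90, -0.79, -1.61 and 1.48. Across the other slides they were -0.64, -0.32, -0.06 and -0.17. HFD livers were lower than LFD livers in 10 of 14 Ugt members (median -0.28, 2 called), against 8612 of all 19598 genes. The Gst median of the diet comparison was -0.04, with 1 call higher and 2 lower, and became 0.11 under quantile normalization. The Sult median of the diet comparison was 0.00, with 1 call higher. The medians of the treatment comparisons kept their sign in all 3 families under quantile normalization, scaling to probes above background on every array and the value table of the series. With the slide as a fixed block the Sult median of HFD-MTX50 against HFD became 0.12, with 7 lower and 9 higher.

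**Figure D2:**
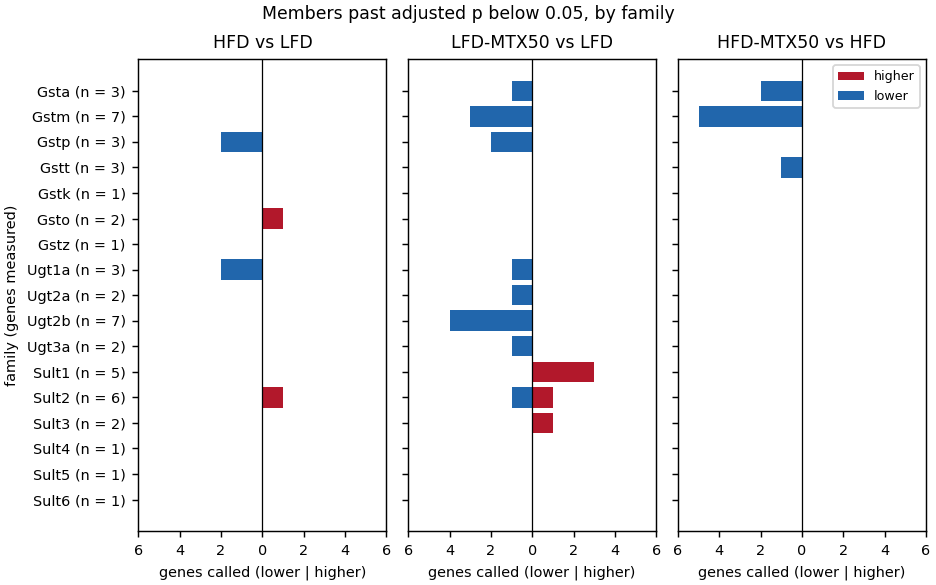
Number of members past an adjusted p of 0.05 (x axis, lower to the left and higher to the right) in each family (y axis, with the number of genes measured), 1 panel per comparison. The 8 calls of HFD-MTX50 against HFD are all lower and all Gst genes, while LFD-MTX50 against LFD has calls in all 3 families.

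The pi class of glutathione S-transferases gave the largest fall of its family on the low-fat diet. Gstp1 and Gstp2 are pi-class enzymes that act on small electrophiles and are known to be more abundant in male than in female mouse liver. The Gstp1 level was 5.90, 5.11, 4.90 and 5.70 in LFD mice 1 to 4 and 3.66, 3.04, 3.73, 4.05 and 2.25 in LFD-MTX50 mice 1 to 5. It was 4.62, 4.16, 3.71 and 4.06 in HFD mice 1 to 4 and 4.31, 4.46, 4.38, 3.79 and 4.91 in HFD-MTX50 mice 1 to 5. Every LFD mouse lay above every other mouse except that LFD mouse 3 lay just below HFD-MTX50 mouse 5, and the 2 HFD groups overlapped. Gstp1 fell by 2.06 (SE 0.32, 4.17-fold, limma adjusted p = 0.00121) in LFD-MTX50 against LFD. Its exact permutation p of 0.00794 is the lowest that 4 against 5 mice can give. It fell by 1.27 (SE 0.34, adjusted p = 0.0146) in HFD against LFD, a call that was lost without HFD mouse 3 (difference -1.12, adjusted p = 0.0571), and the difference of HFD-MTX50 against HFD was 0.23 (SE 0.32, adjusted p = 0.65).

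Gstp2, the neighbouring gene, had levels of 7.26, 6.76, 6.46 and 7.30 in LFD mice and 5.62, 5.06, 5.72, 6.04 and 4.46 in LFD-MTX50 mice. Its levels were 6.27, 6.01, 5.54 and 5.87 in HFD mice and 6.05, 6.27, 6.15, 5.75 and 6.79 in HFD-MTX50 mice. The LFD mice again lay above both the LFD-MTX50 and the HFD mice, with no overlap, and the HFD and HFD-MTX50 mice overlapped. Gstp2 fell by 1.57 (SE 0.29, 2.97-fold, limma adjusted p = 0.00248) in LFD-MTX50 and by 1.03 (SE 0.30, adjusted p = 0.0209) in HFD, and without HFD mouse 3 the latter was -0.90 (adjusted p = 0.0756). Gstp2 also lost its diet call under quantile normalization. Each gene had 2 probes, all 4 of which were called lower in both comparisons, but the genes are near-identical copies and a probe may read RNA of both. Gstp3, the third member of the class, did not pass any comparison, with differences of -0.18, 0.06 and 0.10.

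Alpha-class enzymes are abundant in hepatocytes and several are induced through NRF2. Gsta2 levels were 1.11, 0.93, 1.34 and 1.37 in LFD mice, 0.88, -1.05, -0.23, -0.30 and -1.28 in LFD-MTX50 mice, 1.84, 2.04, 2.07 and 1.27 in HFD mice and 1.79, -0.11, -0.11, 0.76 and -1.05 in HFD-MTX50 mice. All LFD-MTX50 mice lay below all LFD mice, and on the high-fat diet HFD-MTX50 mouse 1 alone lay within the range of the HFD mice. Gsta2 fell on both diets, by 1.59 (SE 0.47, 3-fold, limma adjusted p = 0.0208) in LFD-MTX50 and by 1.55 (SE 0.47, 2.93-fold, adjusted p = 0.0428) in HFD-MTX50. On the slide shared by HFD and HFD-MTX50 mice its difference was -0.83, against -2.08 over the other slides, and with the slide as a fixed block the call was lost (adjusted p = 0.466). Gsta3, which in mouse liver detoxifies the epoxide of aflatoxin, fell by 0.51 (SE 0.16, adjusted p = 0.0469) in HFD-MTX50, where its levels ran from 5.72 to 6.57 against 6.53 to 6.89 in HFD mice, and its difference was -0.26 (adjusted p = 0.224) in LFD-MTX50. Its other probe was called lower on both diets (-0.44, adjusted p = 0.0496, in LFD-MTX50 and -0.54, adjusted p = 0.0408, in HFD-MTX50). Gsta4, which conjugates aldehydes from lipid peroxidation, did not pass. Its difference was -0.89 (SE 0.37, adjusted p = 0.117) in HFD-MTX50, where mouse 5 had a level of -2.57, mouse 2 a still lower one and the others -1.30 to -0.45.

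The mu class held 5 of the 8 members that fell in HFD-MTX50 livers, where 6.13% of all genes fell. All 7 of its measured members had lower means in both treatment comparisons. Gstm2 levels were 2.53, 2.71, 2.71 and 3.10 in HFD mice and 1.96, 0.95, 1.34, 1.67 and 2.40 in HFD-MTX50 mice, with no overlap. It fell by 1.10 (SE 0.27, 2.14-fold, limma adjusted p = 0.0206), while in LFD-MTX50 the difference was -0.42 (adjusted p = 0.229), with levels of 2.17, 2.40, 2.84 and 2.85 in LFD mice and 2.18, 2.45, 1.49, 2.00 and 2.58 in LFD-MTX50 mice. Gstm3, an isoform on the list of NRF2-inducible transferases, had levels of 2.30, 3.17, 3.17 and 3.45 in HFD mice and 2.40, 1.53, 1.15, 1.14 and 1.89 in HFD-MTX50 mice. HFD mouse 1 was the lowest of its group and lay just below HFD-MTX50 mouse 1, so the groups overlapped by these 2 mice. Gstm3 fell by 1.40 (SE 0.32, 2.64-fold, adjusted p = 0.0178). In LFD-MTX50 mice its levels were 2.08, 2.61, 1.10, 2.35 and 1.77 against 3.15, 2.30, 2.86 and 3.23 in LFD mice, a fall of 0.91 (SE 0.32, adjusted p = 0.0455) whose call quantile normalization, the value table and the mean of its 2 probes each ended.

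Gstm6 fell on both diets. Its levels were 2.34, 2.33, 2.57 and 2.74 in LFD mice, 1.40, 1.81, 1.10, 2.04 and 0.83 in LFD-MTX50 mice, 2.25, 2.00, 1.83 and 2.12 in HFD mice and 1.45, 0.36, 1.24, 1.66 and 1.08 in HFD-MTX50 mice. Neither pair of groups overlapped. The falls were 1.06 (SE 0.25, limma adjusted p = 0.008) and 0.90 (SE 0.25, adjusted p = 0.0333). The random slide block ended the first call, and the fixed slide block (adjusted p = 0.0719), the replicate block and a fit of the 2 groups alone each ended the second. Gstm4 fell by 0.86 (adjusted p = 0.0307) and Gstm5 by 0.65 (adjusted p = 0.0332) in HFD-MTX50 but had differences of -0.15 (adjusted p = 0.649) and -0.14 (adjusted p = 0.564) in LFD-MTX50. The other Gstm4 probe was called on both diets (-0.51, adjusted p = 0.00992, in LFD-MTX50 and -0.49, adjusted p = 0.0249, in HFD-MTX50). Gstm7 fell by 0.46 (adjusted p = 0.0255) in LFD-MTX50 and had a difference of -0.02 (adjusted p = 0.929) in HFD-MTX50, although its second probe was called there (-0.60, adjusted p = 0.0196). Gstm1, a major mu enzyme of the liver, passed nowhere, with differences of -0.12 in LFD-MTX50 and -0.35 in HFD-MTX50. The mu genes lie in a cluster of similar copies, and a probe may not separate them: Gstm2, Gstm3, Gstm4 and Gstm6 were called on all their probes in HFD-MTX50, but Gstm3, Gstm6 and Gstm7 on some probes only in LFD-MTX50. On the slide that held both HFD groups the 8 called Gst genes had differences of -0.48 (Gstt1) to -1.45 (Gstm2), and across the other slides of -0.39 (Gsta3) to -2.08 (Gsta2).

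**Figure D3:**
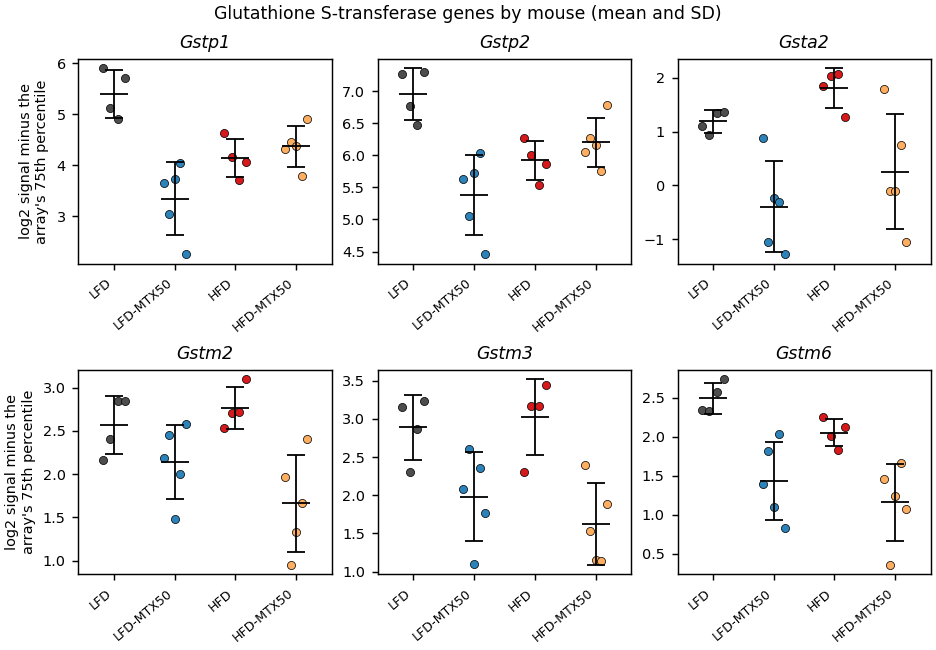
Level (log2 signal minus the 75th percentile of the array) of 6 Gst genes in each mouse (dots) by group, with the group mean and SD (bars). Gstp1 and Gstp2 are lower in LFD-MTX50 and HFD than in LFD mice, whereas Gstm2, Gstm3 and Gstm6 have their lowest means in HFD-MTX50 mice.

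Of the remaining classes, Gstt1, a theta enzyme that acts on small halogenated compounds, fell by 0.45 (SE 0.10, limma adjusted p = 0.0163) in HFD-MTX50, with levels of 4.64, 4.59, 4.56 and 4.47 in HFD mice and 4.04, 4.02, 4.04, 4.35 and 4.14 in HFD-MTX50 mice. The HFD-MTX50 mice lay below the HFD mice without overlap, and the SD was 0.14 or less in both groups. In LFD-MTX50 its difference was -0.26 (adjusted p = 0.059). Gstt2 and Gstt3 passed nowhere. Gsto2, an omega enzyme that reduces dehydroascorbate, rose with the high-fat diet by 0.76 (SE 0.15, adjusted p = 0.00445), from levels of -3.02, -3.30, -3.48 and -3.17 in LFD mice to -2.89, -2.53, -2.17 and -2.34 in HFD mice. Its groups did not overlap, and allowing arrays of a slide to correlate ended the call (adjusted p = 0.0507). Gsto1 did not pass. Gstk1, a kappa enzyme of mitochondria and peroxisomes, had differences of -0.46 (adjusted p = 0.0647, 3 LFD mice, since the spot of LFD mouse 2 was dropped as an outlier) and -0.45 (adjusted p = 0.081) under treatment. Gstz1, the maleylacetoacetate isomerase of tyrosine breakdown, had differences of -0.25 (adjusted p = 0.13) and -0.27 (adjusted p = 0.155).

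The Ugt2b enzymes glucuronidate steroids, bile acids and many drugs. Of the 7 measured, 4 fell in LFD-MTX50 livers, where 10.5% of all genes fell. Ugt2b1 had levels of 2.21, 2.54, 2.52 and 2.64 in LFD mice and 0.71, 0.29, 0.85, 1.43 and -0.57 in LFD-MTX50 mice. It had levels of 2.09, 1.72, 1.61 and 1.98 in HFD mice and -0.59, 0.38, 1.45, 1.74 and 0.61 in HFD-MTX50 mice. The low-fat groups did not overlap, and the HFD-MTX50 mice spread from far below the HFD range into it. Ugt2b1 fell by 1.93 (SE 0.40, 3.82-fold, limma adjusted p = 0.00451) in LFD-MTX50, and by 1.66 (adjusted p = 0.00879) without LFD-MTX50 mouse 5. In HFD-MTX50 its difference was -1.13 (SE 0.40, adjusted p = 0.073), and the slide as a random or a fixed block made it a call (-1.38, adjusted p = 0.04, and -1.90, adjusted p = 0.0151). Ugt2b37 and Ugt2b5 each fell by 0.91 (adjusted p = 0.00798 and 0.00846) and Ugt2b34 by 0.61 (adjusted p = 0.0201) in LFD-MTX50, and in HFD-MTX50 their differences were -0.34, -0.29 and 0.05, none past the threshold. Ugt2b35 (difference -1.15, adjusted p = 0.0619) and its second probe (-0.87, adjusted p = 0.0219), Ugt2b36 (-0.36, adjusted p = 0.145) and Ugt2b38 (-0.51, adjusted p = 0.105) had lower means as well. The Ugt2b genes are close relatives, and reading of more than 1 of them by a probe was not tested.

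Ugt2a1, best known as an enzyme of the nasal epithelium, had levels of 1.48, 2.12, 1.46 and 0.64 in LFD mice, 0.27, -0.02, -0.20, -0.23 and 0.65 in LFD-MTX50 mice, 1.39, 1.33, 0.16 and 0.80 in HFD mice and 0.65, 1.37, 1.45, 1.87 and 0.85 in HFD-MTX50 mice. LFD-MTX50 mouse 5 reached the level of LFD mouse 4, and the other LFD-MTX50 mice lay below all LFD mice. Ugt2a1 fell by 1.33 (SE 0.32, 2.52-fold, limma adjusted p = 0.00822) in LFD-MTX50 and had a difference of 0.32 (adjusted p = 0.512) in HFD-MTX50. Ugt2a3, the liver and gut enzyme of that subfamily, had a difference of -0.36 (adjusted p = 0.195) in LFD-MTX50, where its groups did not overlap (3.40 to 3.72 against 2.95 to 3.38, exact permutation p = 0.00794). Ugt3a1, which uses N-acetylglucosamine in place of glucuronic acid, had levels of 2.43, 2.35, 2.62 and 2.49 in LFD mice and 1.40, 1.26, 1.68, 1.51 and 1.22 in LFD-MTX50 mice. Its levels were 3.11, 2.70, 2.42 and 2.70 in HFD mice and 2.07, 2.46, 2.71, 3.01 and 2.22 in HFD-MTX50 mice. The low-fat groups did not overlap and the high-fat groups did. Ugt3a1 fell by 1.06 (SE 0.17, 2.08-fold, adjusted p = 0.00143, exact permutation p = 0.00794) in LFD-MTX50, a call that held under every setting run, and had a difference of -0.24 (adjusted p = 0.359) in HFD-MTX50. Ugt3a2 passed nowhere.

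The Ugt1a enzymes share their last exons and differ in their first, so a probe in the shared part reads all of them. 3 of them were measured. Ugt1a6a, a phenol-glucuronidating enzyme, had levels of -2.45 to -2.27 in LFD mice, -3.26 to -2.51 in LFD-MTX50 mice, -3.07 to -2.73 in HFD mice and -3.57 to -2.94 in HFD-MTX50 mice. It fell by 0.57 (SE 0.15, limma adjusted p = 0.0153) in HFD and by 0.45 (SE 0.15, adjusted p = 0.0311) in LFD-MTX50, without overlap in either. The normexp background and the value table each ended the LFD-MTX50 call. Ugt1a6b fell by 0.36 (adjusted p = 0.0372) in HFD on its brighter probe, while its other probe had a difference of 0.11 (adjusted p = 0.633), and it had differences of -0.02 and 0.14 under treatment. That other probe was called lower in HFD-MTX50 (-0.52, adjusted p = 0.0413). Ugt1a10 passed nowhere on its brighter probe. Its other probe was called higher in LFD-MTX50 (0.59, adjusted p = 0.0258) where the brighter one had -0.19.

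The Sult1 enzymes sulfate phenols, catecholamines, thyroid hormones and estrogens. Of the 5 measured, 3 rose in LFD-MTX50 livers, where 17.6% of all genes rose. Sult1e1, the estrogen sulfotransferase, had levels of -2.51, -2.50, -2.66 and -2.68 in LFD mice and -1.53, -2.32, -1.91, -1.75 and -0.12 in LFD-MTX50 mice. It had levels of -2.29, -2.03, -1.76 and -1.89 in HFD mice and -1.87, -1.92, -2.45, -2.48 and -2.37 in HFD-MTX50 mice. All LFD-MTX50 mice lay above all LFD mice, with mouse 5 far above the rest. Sult1e1 rose by 1.06 (SE 0.31, 2.09-fold, limma adjusted p = 0.0188) in LFD-MTX50, and by 0.71 (adjusted p = 0.0125) without mouse 5. Sult1a1, the main phenol sulfotransferase of the liver, rose by 0.63 (SE 0.19, adjusted p = 0.0219), from levels of 4.07 to 4.52 to levels of 4.60 to 5.25. Sult1d1, which sulfates catecholamines, rose by 0.87 (SE 0.27, adjusted p = 0.0251), from 0.12 to 0.36 to 0.70 to 1.60. The second probes of Sult1a1 (difference 0.47, adjusted p = 0.114) and Sult1d1 (0.27, adjusted p = 0.576) were not called. In HFD-MTX50 the differences of Sult1a1, Sult1d1 and Sult1e1 were 0.16, 0.55 and -0.22, none past the threshold, and Sult1b1 (-0.88, adjusted p = 0.087) and Sult1c2 did not pass there.

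The Sult2 enzymes sulfate bile acids, hydroxysteroids and cholesterol. Sult2a8, a bile acid sulfotransferase of mouse liver, had levels of 4.33, 4.32, 3.98 and 4.18 in LFD mice and 2.52, 2.39, 2.46, 2.82 and 0.99 in LFD-MTX50 mice. It had levels of 4.24, 3.82, 3.49 and 3.86 in HFD mice and 1.22, 2.91, 3.95, 4.32 and 3.65 in HFD-MTX50 mice. The low-fat groups did not overlap, and HFD-MTX50 mice 1 and 2 were low while the other 3 lay within the range of HFD or above it. Sult2a8 fell by 1.97 (SE 0.48, 3.91-fold, limma adjusted p = 0.00922, exact permutation p = 0.00794) in LFD-MTX50, and by 1.66 (adjusted p = 0.0187) without mouse 5. In HFD-MTX50 its difference was -0.64 (SE 0.48, adjusted p = 0.369). Sult2b1, the cholesterol sulfotransferase, had levels of -4.87, -4.93, -4.80 and -5.03 in LFD mice and -4.43, -4.32, -3.97, -4.37 and -4.62 in LFD-MTX50 mice. It had levels of -4.79, -4.24, -4.05 and -3.94 in HFD mice and -4.35, -4.61, -4.85, -5.16 and -5.27 in HFD-MTX50 mice. Both groups lay above LFD without overlap, and the HFD-MTX50 mice were back in the LFD range or below it except for mice 1 and 2. Sult2b1 rose by 0.57 (SE 0.19, adjusted p = 0.0378) in LFD-MTX50 and by 0.65 (SE 0.20, adjusted p = 0.027) in HFD, and quantile normalization ended both calls.

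Sult2a1, Sult2a2, Sult2a6, Sult3a1 and Sult3a2 are the measured members of a list of 8 female-biased conjugation enzymes of mouse liver. Of these 5, limma called 1 higher in LFD-MTX50 (Sult3a1, where 17.6% of all genes were higher), 0 in HFD (0 at an unadjusted p below 0.05) and 0 in HFD-MTX50 (2 higher at an unadjusted p below 0.05), with median differences of 0.64, 0.50 and 0.33. Sult3a1, which sulfates amines, was not well above background in any LFD mouse and was above it in 4 of 5 LFD-MTX50, 2 of 4 HFD and 3 of 5 HFD-MTX50 mice. Its measured levels were -8.53, -7.23, -7.17 and -8.59 in LFD mice and -4.50, -2.54, -5.61, -6.91 and -0.17 in LFD-MTX50 mice, and -7.23 to -5.42 in HFD and -7.07 to -4.48 in HFD-MTX50 mice. LFD-MTX50 mice spread widely, with mouse 5 the highest. The LFD-MTX50 mouse 4 value lies below the background limit of the LFD mice (-6.56), so its order against them is not known. That limit is a mean over the LFD arrays of the lowest level of any probe well above background, or of the Sult3a1 level where higher. A spot that is not well above background can still hold more signal than this. Taking the limit for the LFD mice and mouse 4 as measured, Sult3a1 was 6.11-fold higher in LFD-MTX50. Without LFD-MTX50 mouse 5 it was 3.18-fold higher. These folds are estimates and were not tested. The limma test is of the measured difference, 3.93 (adjusted p = 0.0109), and 2.99 without mouse 5 (adjusted p = 0.0147). Sult2a1 differed by 0.50 in HFD, 0.64 in LFD-MTX50 and 1.32 (SE 0.49, adjusted p = 0.0825) in HFD-MTX50. Sult2a2 differed by -0.99 (adjusted p = 0.292) in LFD-MTX50 and 1.52 (SE 0.71, adjusted p = 0.152) in HFD-MTX50, and ran from -3.58 to 0.52 among the HFD mice. Sult2a6 (0.67, 0.61 and -0.24), Sult2a7 (-0.10, 0.92 and 0.82) and Sult3a2 (-0.30, 1.26 and -0.16) did not pass in HFD, LFD-MTX50 or HFD-MTX50. The Sult2a genes are close copies that a probe may not separate.

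Of the remaining sulfotransferases, Sult4a1, a brain-enriched member with no established substrate, had differences of 0.31 in HFD, 0.35 in LFD-MTX50 and -0.35 in HFD-MTX50, none past the threshold. Sult5a1 had levels of -1.59, -1.75 and -1.67 in LFD mice 1, 3 and 4 and -8.68 in LFD mouse 2, whose spot was the only one of the 18 below background, and levels of -0.99 to -0.71 in HFD mice. Its difference of 2.54 in HFD (adjusted p = 0.08) and of 1.44 in LFD-MTX50 (adjusted p = 0.282) rest on that mouse. Without it the 3 LFD mice still lay below the 4 HFD mice but above all 5 LFD-MTX50 mice, whose levels were -2.09 to -1.83. Sult6b2 was not well above background in any HFD or HFD-MTX50 mouse and is given no direction. Gstt4, Sult1c1, Sult2a3, Sult2a4 and Sult6b1 were above background on 0 to 2 arrays and were left out. Gsta1, Ugt1a1, Ugt1a2, Ugt1a5, Ugt1a7c, Ugt1a8, Ugt1a9, Ugt2a2, Sult2a5 and the pseudogenes Gstm2-ps1 and Sult2a-ps2 had no probe named by the table.

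**Figure D4:**
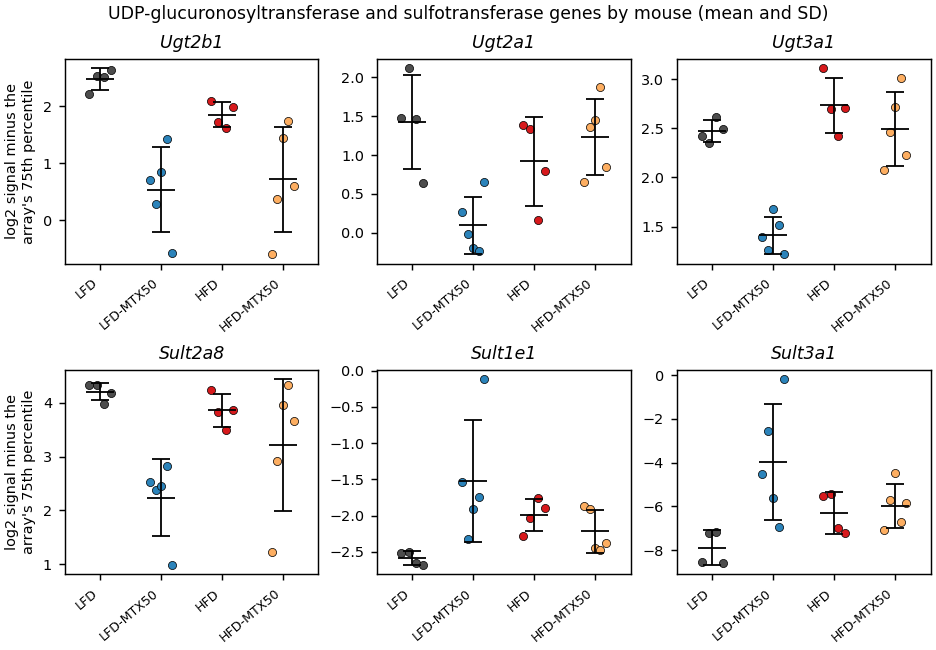
Level (log2 signal minus the 75th percentile of the array) of 3 Ugt and 3 Sult genes in each mouse (dots) by group, with the group mean and SD (bars). Ugt2b1, Ugt3a1 and Sult2a8 are lower and Sult1e1 is higher in every LFD-MTX50 mouse than in the LFD mice, and no LFD mouse and 4 of 5 LFD-MTX50 mice are above background for Sult3a1.

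Methotrexate was compared between the diets through the difference of the 2 treatment differences, HFD-MTX50 minus HFD less LFD-MTX50 minus LFD. Of 50 members, 4 were called higher (Gstp1, Gstp2, Ugt2a1 and Ugt3a1) and 3 lower (Sult1e1, Sult2b1 and Sult4a1), where 8.66% of all genes were higher and 18.1% lower. The difference was 2.29 (SE 0.46, limma adjusted p = 0.00588) for Gstp1, 1.85 (SE 0.40, adjusted p = 0.00731) for Gstp2, 1.65 (SE 0.45, adjusted p = 0.0156) for Ugt2a1 and 0.82 (SE 0.25, adjusted p = 0.023) for Ugt3a1. All 4 fell with methotrexate on the low-fat diet and were not called on the high-fat diet. The difference was -1.29 (SE 0.43, adjusted p = 0.0368) for Sult1e1, -1.16 (SE 0.27, adjusted p = 0.00918) for Sult2b1 and -0.70 (SE 0.19, adjusted p = 0.0145) for Sult4a1. The second probe of Sult4a1 had -0.10 (adjusted p = 0.813), and the mean of its probes ended the call. Of the 7 calls, 5 held whichever array was left out. Sult1e1 was lost when any 1 of 11 arrays was left out (adjusted p = 0.0792 without HFD mouse 3) and under quantile normalization, and Ugt3a1 without HFD mouse 3 (0.72, adjusted p = 0.0589) and under quantile normalization. With the random slide block Gstp1, Gstp2 and Sult2b1 were called, and the split of higher and lower calls was 3 and 4 under quantile normalization and 5 and 2 after scaling to probes above background on every array. For the mu-class genes that fell in HFD-MTX50 the test of the difference missed the threshold, with -0.67 (SE 0.38, adjusted p = 0.184) for Gstm2, -0.71 (SE 0.33, adjusted p = 0.114) for Gstm4 and -0.51 (SE 0.26, adjusted p = 0.144) for Gstm5. On their dimmer probes Gstm2 passed it (-0.97, adjusted p = 0.0195, and -1.34, adjusted p = 0.0294), and for Gsta2 the difference was 0.04 (SE 0.66).

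Both treatment comparisons lowered 28 of the 50 members in their means, raised 7 and moved 15 in opposite directions. 3 members, Gsta2, Gstm3 and Gstm6, were called lower on both diets, 16 were called on the low-fat diet alone and 5 on the high-fat diet alone, and 24 were called in none of the 3 comparisons. Of all 19598 genes, 5503 were called in LFD-MTX50, 2148 in HFD-MTX50 and 5555 in HFD. Joint counts over all genes were not made, so the joint counts of members have no background beside them. A call on 1 diet alone is no test of a difference between diets. Of the 5 measured NRF2-inducible transferases (Gsta2, Gsta4, Gstm1, Gstm3 and Gstm4), 2 fell in LFD-MTX50 (10.5% of all genes) and 3 in HFD-MTX50 (6.13% of all genes), with median differences of -0.15 and -0.89. Of those 3, the fixed slide block ended the calls of Gsta2 (adjusted p = 0.466) and Gstm3 (adjusted p = 0.1) but not that of Gstm4. The 2 male-biased transferases, Gstp1 and Gstp2, fell in HFD and in LFD-MTX50 and were not called in HFD-MTX50.

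**Figure D5:**
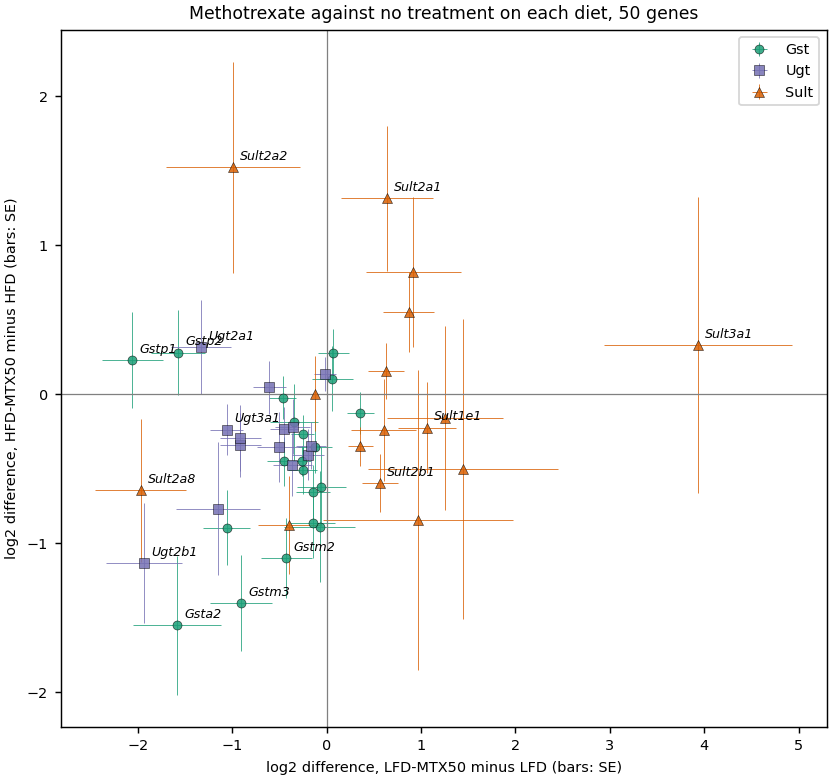
Difference of LFD-MTX50 minus LFD (x axis) against HFD-MTX50 minus HFD (y axis), both log2, for each of the 50 members by family, with SE as bars. Gsta2, Gstm3 and Gstm2 lie below 0 on both axes, Gstp1, Gstp2 and Ugt2a1 are far below 0 on the x axis only, and Sult3a1, whose x value was measured against a group below background, lies far to the right.

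The genes that supply or surround the conjugation step were counted from fixed lists, and the counts are to be read beside the shares of all genes, 10.5% lower and 17.6% higher in LFD-MTX50, 6.13% and 4.83% in HFD-MTX50 and 10.4% and 18% in HFD. Of 4 genes of UDP-glucuronic acid supply and glucuronide turnover, 2 fell in LFD-MTX50 (Ugdh, which makes UDP-glucuronic acid, by 1.00, limma adjusted p = 0.0021, and Ugp2, which makes UDP-glucose, by 0.63, adjusted p = 0.0332) and none rose. Of 4 measured genes of sulfate donor supply, 2 fell in LFD-MTX50 (the PAPS synthase Papss1 by 0.73 and Bpnt1, which clears the used donor, by 0.67) and 1 rose (the PAPS carrier Slc35b3, by 0.52). Of 8 genes of glutathione synthesis and recycling, 1 fell in LFD-MTX50 (Gclc, the catalytic subunit of the rate-limiting ligase, by 1.17, adjusted p = 0.0324) and 2 rose (Chac1, which degrades glutathione, by 1.40, and Gss, glutathione synthetase, by 0.91). Of the 3 microsomal glutathione transferases, Mgst1 fell by 0.86 (adjusted p = 0.000923) and Mgst3 rose by 0.83 (adjusted p = 0.00848) in LFD-MTX50. In HFD-MTX50 limma called 0 genes of these 4 lists, with medians of -0.20, -0.08, -0.02 and -0.33, and at an unadjusted p below 0.05 there were 1 higher (of glutathione synthesis and recycling) and 1 lower (of the microsomal transferases). In HFD, Chac1 rose by 1.08 and Mgst3 by 0.62.

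Among other conjugation enzymes, Nat8, which acetylates cysteine conjugates, fell by 1.17 (limma adjusted p = 0.00121) in LFD-MTX50, the methyltransferase Hnmt fell by 0.71 and As3mt rose by 0.74. Nat8 was also called lower in HFD against LFD. Of the 11 on that list, 3 fell in HFD-MTX50 (the methyltransferases Inmt, by 2.05, Hnmt, by 0.63, and Tpmt, by 0.58). Of 4 conjugate export pumps Abcg2 fell by 1.48 in LFD-MTX50 (adjusted p = 6.62e-05), and the other pumps were not called. Of 10 xenobiotic receptors and partners, Nfe2l2, which encodes NRF2, fell by 0.72 in LFD-MTX50, whereas Nr1i2 (PXR), Keap1 and Rxra rose by 0.53, 0.32 and 0.32. The hepatocyte factor Hnf4a fell by 0.55 in HFD and rose by 0.51 in HFD-MTX50. Rxra was also called higher in HFD against LFD. Of 6 NRF2 marker genes, 1 rose (Nqo1, by 0.84) and 1 fell (Gclc) in LFD-MTX50, and Nqo1 rose by 0.56 in HFD. Of 5 AhR marker genes, Cyp1a2 fell by 1.73 and Cyp1a1 by 1.39 while Cyp1b1 rose by 0.96 in LFD-MTX50, and of 5 CAR and PXR marker genes limma called 0 in either treatment comparison (1 higher in LFD-MTX50 and 1 lower in HFD-MTX50 at an unadjusted p below 0.05). In HFD, Cyp2b10, a CAR target, rose by 2.24 (adjusted p = 0.0322) and Cyp2c29 fell by 0.60.

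Markers of liver zones and of other cells were counted in the same groups. Of 6 hepatocyte markers, Cps1 and Hnf4a were called lower in HFD, Apoa1 higher in LFD-MTX50 and Hnf4a higher in HFD-MTX50. Of 5 periportal markers, Pck1 was called higher and Cyp2f2 lower in LFD-MTX50 (median difference 0.12). In HFD-MTX50 limma called 0 of them (0 at an unadjusted p below 0.05). Cholangiocyte, lymphocyte, endothelial and stellate cell lists had at most 1 call in each of the 3 comparisons. Of 5 markers of pericentral hepatocytes, the zone where many conjugation enzymes are most abundant, 2 were called lower in LFD-MTX50 (Cyp1a2 and the ammonium transporter Rhbg, median difference -0.51) and 1 in HFD-MTX50 (Rhbg, median -0.49). Their summed signals overlapped between the groups, with the lowest LFD mouse at 191 and the lowest LFD-MTX50 mouse at 183, the lowest HFD mouse at 158 and the lowest HFD-MTX50 mouse at 152, and the highest mouse of each treated group above the highest of its control (233 in LFD and 230 in HFD). The summed signal of the 4 measured erythroid markers was 16.6 to 23.8 in LFD, 1.03 to 1.58 in LFD-MTX50, 11.0 to 24.0 in HFD and 1.37 to 58.7 in HFD-MTX50 mice, with 3 of 4 called lower in LFD-MTX50. Neutrophil markers (4 of 5 measured) summed to 0.865 to 1.19 in LFD, 0.935 to 6.59 in LFD-MTX50, 0.849 to 1.86 in HFD and 0.992 to 48.1 in HFD-MTX50 mice, with Ngp not above background in any LFD or HFD mouse. Adipocyte markers summed to 0.260 to 0.406 in LFD, 0.354 to 0.673 in LFD-MTX50, 4.06 to 6.55 in HFD and 0.447 to 1.45 in HFD-MTX50 mice. Of the 4, Cfd, Lep and Plin1 were called higher in HFD, and Lep, Adipoq and Plin1 in LFD-MTX50. The list was split: Cfd had a difference of -1.57 in LFD-MTX50, not called. In HFD-MTX50 Cfd was called lower (-5.3) and Adipoq higher (0.88). Kupffer cell markers summed to 27.6 to 42.3, 21.4 to 27.8, 19.7 to 37.7 and 32.7 to 48.2 in the same order of groups. In LFD-MTX50 1 of 5 was called lower (Cd68), while 3 had higher and 2 lower means (median difference 0.26). In HFD-MTX50 all 5 Kupffer cell markers had higher means (median difference 0.57). Limma called 0 of them (2 higher at an unadjusted p below 0.05). All 4 neutrophil markers had higher means there too (median difference 2.65), with 0 called and 3 higher at an unadjusted p below 0.05. The part of these shifts in the changes of the conjugation genes was not tested.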

How the data were processed

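Liver RNA of 18 mice was hybridised to 18 one-colour Agilent arrays. The spots were quantified by the authors in Agilent Feature Extraction 10.7.3.1. The deposited intensity values are processed signals, per the file headers background-subtracted and cleared of trends within each array, not scaled between arrays. The records name Trizol, RNeasy and a low RNA input kit, the methods RNeasy and Quick Amp. A table deposited with the series holds background-subtracted signals, rounded.

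Signals were put on the log2 scale minus the 75th percentile of the array, outlier spots (124 to 294 per array) were left out, replicate spots were averaged by probe, and 35739 of 39429 probes, those above background on 4 or more arrays, were kept. RefSeq accessions named 28025 probes (71.1%). limma 3.58.1 (R 4.3.3) fitted 1 model over 4 groups, with p-values adjusted by Benjamini-Hochberg across every kept probe and 2.77 prior degrees of freedom. A gene was read on its brightest probe, and 16 members had several kept probes. Probe positions refer to an earlier build and are not given. Exact permutation tests were two-sided. 4 against 4 mice cannot give a p below 0.0286. The fit was tested on simulated data.

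Members, gene lists, tests and alternatives were chosen with earlier results of these data known. Named with values were members past the adjusted p with a 2-fold change, those whose treatment effects differed, members of the 3 lists within the families, up to 3 others of a family, and of each pathway list up to 3 past the adjusted p per comparison. The diet calls of Nat8 and Rxra are given without values. Other members, second probes and marker genes were named after their values were seen. Normexp used median signals, since mean signals are not in the files. A result for 1 gene of the pathway lists is not reported here.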

Additional observations from a re-analysis of the deposited data

Results flagged for a closer look

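In limma's test of the difference (HFD-MTX50 minus HFD less LFD-MTX50 minus LFD, adjusted over all probes) 7 of the 50 members were called. Of these 4 were higher and 3 lower, where 8.66% of all genes were called higher and 18.1% lower, so the members were not called more often than other genes. The values were 2.29 for Gstp1 (-2.06 on the low-fat and 0.23 on the high-fat diet), 1.85 for Gstp2 (-1.57 and 0.28), 1.65 for Ugt2a1 (-1.33 and 0.32) and 0.82 for Ugt3a1 (-1.06 and -0.24). They were -1.29 for Sult1e1 (1.06 and -0.22), -1.16 for Sult2b1 (0.57 and -0.59) and -0.70 for Sult4a1 (0.35 and -0.35). Gstp1, Gstp2, Ugt2a1, Sult2b1 and Sult4a1 kept the call whichever array was left out. Sult1e1 lost it when any 1 of 11 arrays was left out and under quantile normalization and scaling to probes above background on every array. Ugt3a1 lost it without HFD mouse 3, with the normexp background, under quantile normalization and in the value table. The random slide block ended the calls of Ugt2a1, Ugt3a1, Sult1e1 and Sult4a1. Taking the mean of a gene's probes also ended the call of Sult4a1, which rests on its brighter probe. The 2 Gstp genes are near-identical copies and may be 1 signal.

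In 8 of 199 groups of mice (4.02%) 1 mouse lay far from the others of its group by Dixon's criterion, which chance alone gives in about 1 in 20 groups. HFD-MTX50 mouse 2 had a Sult1a1 level of 4.82 (others 3.84 to 4.06). HFD mouse 4 had a Sult2a1 level of -4.66 (others -6.30 to -6.15), and LFD mouse 3 a Sult3a2 level of -4.49 (others -6.97 to -6.60). HFD-MTX50 mouse 5 had a Sult2a7 level of 1.54 (others -1.59 to -1.35), a Ugt2b35 level of -1.02 (others 1.51 to 2.08) and a Ugt2b36 level of 3.36 (others 3.99 to 4.11). LFD-MTX50 mouse 5 had a Sult2a8 level of 0.99 (others 2.39 to 2.82). LFD mouse 2 had a Sult5a1 level of -8.68 (others -1.75 to -1.59).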

How the results depend on the processing

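Of the 40 calls of single genes, 0 reversed under any setting run, and direction was kept in all. The number of members called moved by over 1.5 times in these cases, and the causes were not tested. With only the 2 groups compared limma called 17 for the diet and 0 for HFD-MTX50 against HFD (1 higher and 16 lower at an unadjusted p below 0.05). With the slide as a random block it called 0 for the diet (6 at an unadjusted p below 0.05), 3 for LFD-MTX50 against LFD and 3 for the difference between treatment effects. A Student's t-test, which the methods state for measures such as weight and not for the arrays, called after Benjamini-Hochberg adjustment 11 for the diet and 0 for HFD-MTX50 against HFD (10 lower at an unadjusted p below 0.05). Requiring a 2-fold change left 2, 10 and 3. Leaving out 1 array gave 2 (without HFD mouse 3) to 8 for the diet, 14 (without LFD mouse 3) to 23 for LFD-MTX50 against LFD, 0 (without HFD mouse 3) to 9 for HFD-MTX50 against HFD and 5 to 10 for the difference. Without LFD mouse 4 or HFD mouse 4 the diet gave 3, and HFD-MTX50 against HFD gave 1 without HFD mouse 4, 3 without HFD mouse 2 and 4 without HFD-MTX50 mouse 3 or 5.

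Replicate numbers did not pair the mice (correlations of deviations from -0.31 to 0.25), and with the replicate block 5, 20, 4 and 9 members were called in the 4 tests. Normexp on all spots gave unusable background estimates on arrays with a few spots far below their local background and was not used. An alternative added after seeing the data, normexp without those 51 spots, called 6, 20, 7 and 6. A fixed slide block could be fitted for HFD-MTX50 against HFD only, and called 10 (2 higher and 8 lower, of which 4 are among the 8 Gst calls). Its difference comes from the mice of the shared slide alone. Signal over background limits Sult3a1, Sult3a2, Sult6b2 and Sult2a1 most.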
